A study of Homo sapiens with 18 samples.

Results

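HERC5, OAS1, IFI6, ISG20, IFIT2, IFIT3, MX2, IFITM1 and SLFN11 are 9 genes known to be switched on by interferons, and their signal was followed across 18 microarrays of 2 human melanoma cell lines. All probe sets annotated to these genes were taken: 14 of the 23416 in the table, of which 13 named 1 gene and 1 was shared by IFITM1 and IFITM2. All 9 genes and all 13 single-gene probe sets reached log2 4 in at least 3 arrays, so all 9 are among the 10940 genes tested in the table. The 9 were chosen by their deposited log2 values, with the differences between these groups already known, so their levels and differences are given as description and no p-value is attached to them. Tests are given for other interferon genes, on a list of 115 of which 70 were measured above the filter.

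Interferons are secreted when cells sense foreign or misplaced nucleic acid. Types I and III act through JAK kinases on a complex that includes IRF9 and binds the interferon-stimulated response element (ISRE), and the gamma-activated site (GAS) is the element known for type II (interferon gamma). The genes they induce block viral entry, translation and replication, and many tumour lines express a part of them without added interferon. Among the 9, HERC5 is the ligase that attaches ISG15 to new proteins, OAS1 makes the 2′-5′ oligoadenylates that activate RNase L, and ISG20 is a 3′-5′ exonuclease. IFIT2 and IFIT3 are tetratricopeptide proteins that act with the RNA-binding IFIT1. IFI6 is a small membrane protein linked to survival of stressed cells, IFITM1 restricts viral entry at membranes, MX2 is a dynamin-like GTPase that restricts HIV, and SLFN11 blocks replication in cells treated with DNA-damaging drugs.

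In C32, the groups were cells carrying FHL2 shRNAs (C32 shFHL2) and GFP cells (C32 GFP). In A375M2, a metastatic derivative of A375, they were cells carrying FHL2 shRNAs (A375M2 shFHL2), cells given full-length PMEL (A375M2 PMEL), cells carrying NFYA shRNAs (A375M2 shNFYA) and GFP cells (A375M2 GFP). A375M2 shFHL2, PMEL and GFP cells were transduced with lentivirus and drug-selected, and shFHL2 cells were also sorted for the brightest GFP, so the GFP cells carry a viral vector too. The PMEL and GFP vectors used a CMV promoter with an IRES-eGFP and blasticidin selection, while the FHL2 hairpins were a pool of 3 constructs selected with puromycin and paired with copGFP particles. The labels do not say which GFP vector the GFP arrays hold, no group carries a non-targeting hairpin, and these details are not given for C32 and NFYA. FHL2 is a LIM-domain scaffold protein, PMEL forms the fibrils of melanosomes, and NFYA belongs to the trimeric factor NF-Y, which binds CCAAT boxes.

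Each group has 3 arrays, from 3 separate experiments in A375M2. No such statement covers C32, where the spread between arrays may be technical. The fit shares its spread for each gene over all groups, so p-values for C32 also rest on the spread of the A375M2 arrays. Values are log2 signals as deposited, from 0.53 to 16.72 over the table. Replicate 3 of C32 GFP equalled the average of its fellow replicates almost exactly (SD of the deviation 0.00669 log2 in 13428 bright probe sets, and 0.088 to 0.141 in every other array). It was left out, which leaves 2 arrays. Replicate 3 of A375M2 GFP and of A375M2 PMEL mirrored each other around the other replicates (correlation of deviations -0.998). They are not independent arrays, so the error of comparisons that use them is understated. They also enter the spread that the C32 comparisons share. Leaving both out changed no direction of a called interferon gene and moved no difference among the 9 genes by more than 0.16 log2. The A375M2 shRNA arms shared 300 to 309 exactly equal low values with each other and 0 with A375M2 GFP. In these comparisons the arm and the set of arrays thus cannot be told apart. Replicate 3 of A375M2 GFP, a mirrored array, also shared 0 with replicates 1 and 2 of its own group, which shared 934. The targets moved as labelled: FHL2 differed by -5.24 log2 in C32 shFHL2 and -4.04 in A375M2 shFHL2, PMEL by 3.38 in A375M2 PMEL and NFYA by -2.06 in A375M2 shNFYA (limma, largest adjusted p = 1.59e-12). By group mean all 6 measured melanocyte markers were above log2 4 in C32, though PMEL was close to it in C32 shFHL2 (4.03, 4.22 and 3.98). In A375M2, PMEL, TYR, TYRP1 and MLANA were under log2 4 in shFHL2, PMEL, TYR and MLANA in shNFYA, and MLANA in PMEL and GFP cells.

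Promoters are shown for the 4 members that were over 3-fold lower in C32 shFHL2 than in C32 GFP (HERC5, OAS1, IFI6 and ISG20), and for IFIT3, which barely differed there. They are the 250 bases before the gene start from RefSeq, assembly GRCh38.p14, read 5′ to 3′ on the gene's strand; 7 of the 9 members had an entry. Capitals mark an ISRE core, GAAANNGAAA on either strand, so TTTCNNTTTC is its reverse complement.
HERC5, chr4:88456869-88457118, plus strand: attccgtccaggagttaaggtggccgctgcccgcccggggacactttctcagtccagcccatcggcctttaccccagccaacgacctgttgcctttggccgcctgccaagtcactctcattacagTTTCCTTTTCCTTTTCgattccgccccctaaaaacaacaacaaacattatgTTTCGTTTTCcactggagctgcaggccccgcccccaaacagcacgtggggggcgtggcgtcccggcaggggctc
OAS1, chr12:112906712-112906961, plus strand: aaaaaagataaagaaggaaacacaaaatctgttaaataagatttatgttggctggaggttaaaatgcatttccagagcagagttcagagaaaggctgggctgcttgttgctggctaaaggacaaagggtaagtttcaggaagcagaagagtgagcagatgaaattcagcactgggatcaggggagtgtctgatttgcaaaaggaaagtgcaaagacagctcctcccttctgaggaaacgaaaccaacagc
IFI6, chr1:27672193-27672442, minus strand: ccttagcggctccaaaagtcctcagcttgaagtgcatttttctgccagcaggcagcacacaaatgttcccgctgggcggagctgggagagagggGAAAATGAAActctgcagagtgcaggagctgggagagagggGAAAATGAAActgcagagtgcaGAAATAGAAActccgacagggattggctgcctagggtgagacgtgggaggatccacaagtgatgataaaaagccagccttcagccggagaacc
ISG20, chr15:88638766-88639015, plus strand: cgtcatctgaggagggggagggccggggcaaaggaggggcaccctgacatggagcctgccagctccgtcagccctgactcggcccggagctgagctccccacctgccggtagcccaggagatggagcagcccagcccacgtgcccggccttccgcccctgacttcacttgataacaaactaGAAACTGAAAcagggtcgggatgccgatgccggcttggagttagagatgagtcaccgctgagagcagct
IFIT3, chr10:89327747-89327996, plus strand: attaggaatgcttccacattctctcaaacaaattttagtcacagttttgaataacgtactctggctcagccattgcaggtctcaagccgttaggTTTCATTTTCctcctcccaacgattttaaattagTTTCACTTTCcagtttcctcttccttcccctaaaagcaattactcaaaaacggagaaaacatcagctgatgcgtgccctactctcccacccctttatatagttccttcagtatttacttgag
HERC5 held 3 matches, at bases 125 to 116, 119 to 110 and 74 to 65 before the start, the first pair overlapping. IFI6 held 3, of which 2 carry the same letters, IFIT3 held 2 and ISG20 held 1, at bases 69 to 60. IFITM1, not printed, held 1. In the OAS1 and SLFN11 windows these letters do not occur. The core was present in 5 of 7 member promoters, in 33 of 93 promoters of other interferon genes (35.5%) and in 839 of all 27305 promoters of this length (3.07%). A GAS core, TTCNNNGAA, was present in OAS1, IFITM1 and SLFN11, in 18.3% of promoters of other interferon genes and in 6.78% of all promoters. A match is a description of letters, not of binding. Members with and without a match to these letters were found among those lower in C32 shFHL2. The pattern asks for exactly 2 bases between the GAAA repeats. Near its end the OAS1 window holds gaaacgaaa, with 1 base between them, which is not counted. A window without a match may therefore still hold an ISRE.

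The 9 genes did not move as a block. In C32 shFHL2, 6 lay below C32 GFP, 2 above and 1 overlapped it (74.6% of all genes did not overlap). The 2 above were MX2, which is under log2 4 in both arms and has no order there, and IFIT2, whose probe sets differed in sign, so no member was clearly higher in C32 shFHL2. In A375M2 shFHL2, 5 lay above and 4 below A375M2 GFP (background 86.9%), and in A375M2 shNFYA 5 lay above, 3 below and 1 overlapped (background 87.1%). One of those above in shNFYA, SLFN11, is under log2 4 in both arms, and with values under log2 4 set to 4 the count above is 4. In A375M2 PMEL, 3 lay above, 2 below and 4 overlapped A375M2 GFP (background 49.8%). With backgrounds this high, a lack of overlap says little by itself, and the sizes carry the description. The 3 A375M2 comparisons use the same GFP arrays.

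**Figure D1:**
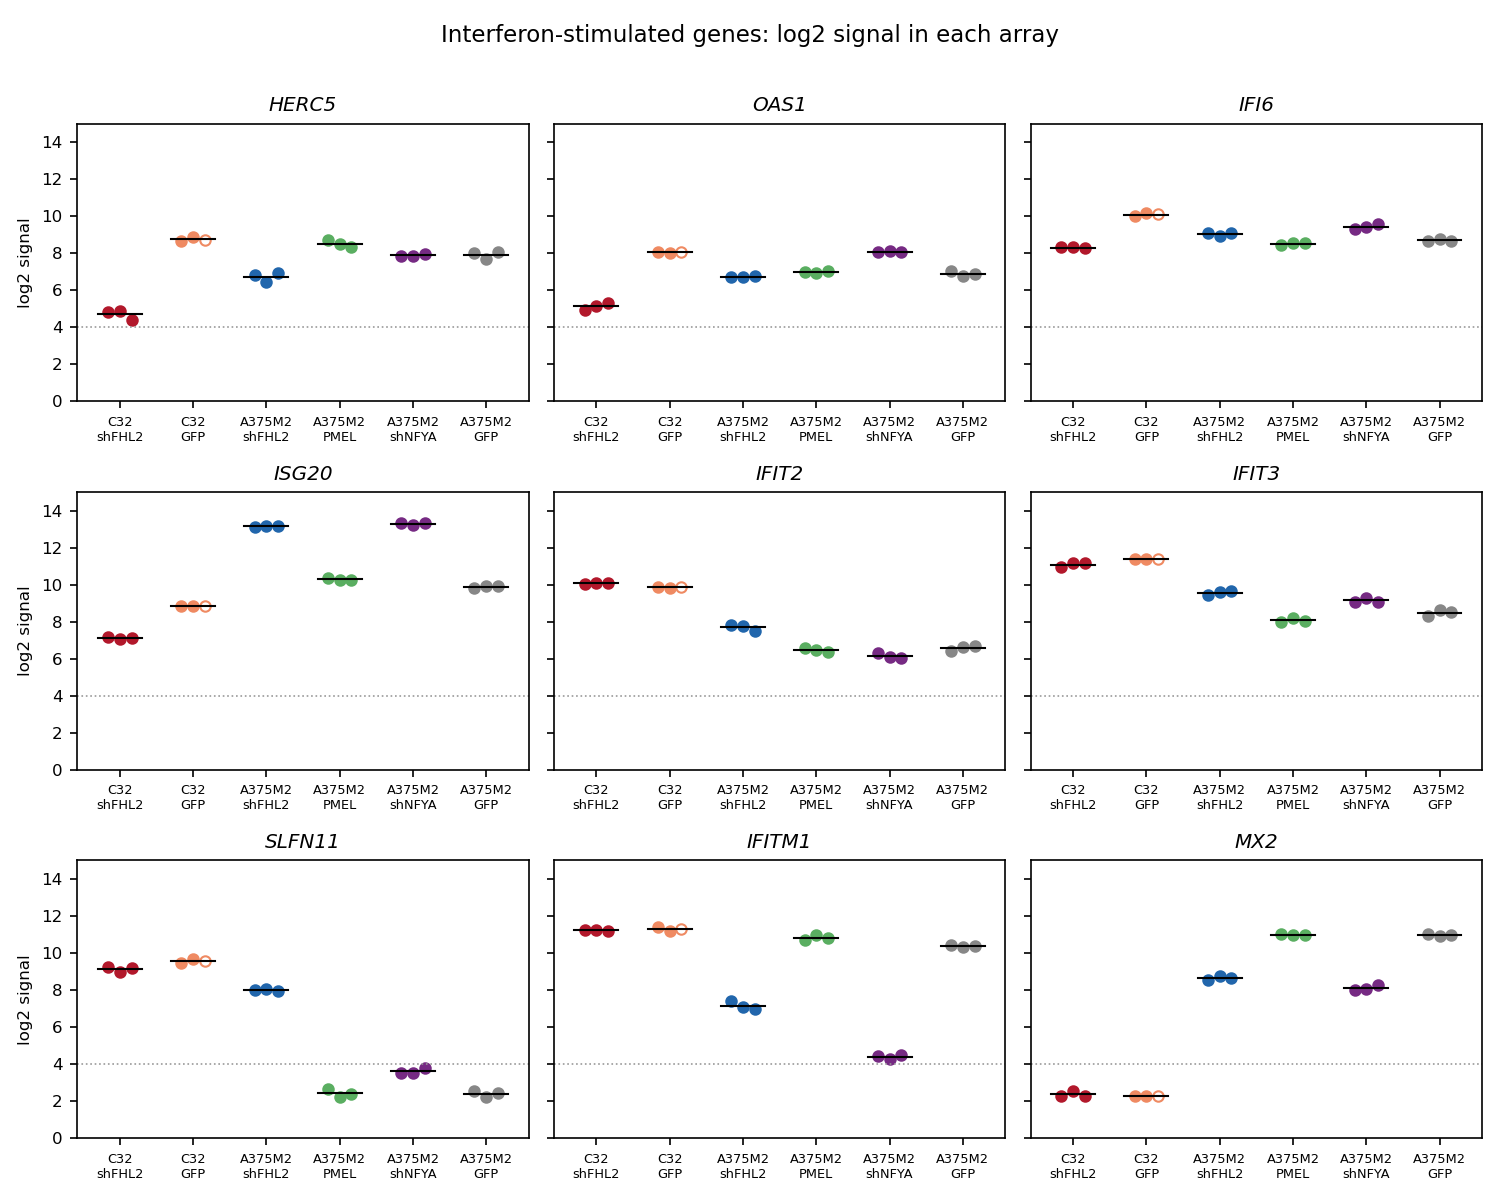
Log2 signal (y axis) of each of the 9 genes in every array (points) of the 6 groups (x axis), with the group mean as a bar. The open point is replicate 3 of C32 GFP, which is left out of the mean, and the dotted line marks log2 4. HERC5, OAS1, IFI6 and ISG20 are lowest in C32 shFHL2, SLFN11 is high in 3 groups and under log2 4 in the other 3, and MX2 is at the bottom of the scale in C32.

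HERC5, the ISG15 ligase, was the member with the largest difference in C32. Its signal was 4.82, 4.90 and 4.38 in the C32 shFHL2 arrays, against 8.63 and 8.85 in C32 GFP, a difference of -4.04 log2 (SE 0.16) or 16.4-fold. The arms were 3.73 log2 apart at their nearest arrays. In A375M2 it was 6.81, 6.44 and 6.91 in shFHL2, 8.69, 8.50 and 8.35 in PMEL and 7.87, 7.84 and 7.96 in shNFYA, against 7.99, 7.69 and 8.08 in GFP. HERC5 was thus also lowest with the FHL2 hairpins in A375M2, by -1.20 log2 (SE 0.15), while the NFYA hairpins overlapped GFP. The PMEL arm was 0.59 above GFP, and 0.75 without the mirrored arrays. From high to low its group means ran C32 GFP, A375M2 PMEL, A375M2 GFP, A375M2 shNFYA, A375M2 shFHL2 and C32 shFHL2. C32 GFP overlapped A375M2 PMEL, and A375M2 GFP overlapped A375M2 shNFYA.

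OAS1, the oligoadenylate synthetase, followed HERC5 in C32 and not in A375M2. It measured 4.95, 5.17 and 5.29 in C32 shFHL2, against 8.08 and 8.01 in C32 GFP, a 7.51-fold difference (-2.91 log2, SE 0.10) with no overlap. In A375M2 the values were 6.69, 6.74 and 6.76 in shFHL2, 6.98, 6.94 and 7.02 in PMEL and 8.06, 8.13 and 8.06 in shNFYA, against 7.04, 6.78 and 6.86 in GFP. Here the NFYA hairpins stood out, 1.19 log2 above GFP (SE 0.09), at the level of C32 GFP, whereas shFHL2 was -0.17 from GFP with its arrays only 0.03 log2 away. A dimmer OAS1 probe set gave 3.14, 3.12 and 3.18 in C32 shFHL2, against 6.25 and 6.92 in C32 GFP. In A375M2 this probe set gave 3.93, 4.48 and 4.004 in shFHL2 and 6.30, 6.57 and 6.58 in shNFYA, against 3.36, 3.99 and 3.94 in GFP. Both probe sets placed C32 shFHL2 lowest and A375M2 shNFYA beside C32 GFP, but they differed in sign for A375M2 shFHL2 against GFP, so OAS1 has no settled direction there.

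ISG20, the exonuclease, had opposite differences in the 2 lines. Its arrays read 7.15, 7.05 and 7.12 in C32 shFHL2, against 8.82 and 8.86 in C32 GFP, lower by 3.32-fold (-1.73 log2, SE 0.05). In A375M2 they read 13.11, 13.15 and 13.18 in shFHL2, 10.38, 10.25 and 10.25 in PMEL and 13.34, 13.21 and 13.31 in shNFYA, against 9.83, 9.91 and 9.94 in GFP. Both A375M2 hairpin arms had the highest ISG20 signal of the 6 groups, 9.52-fold above GFP for shFHL2 and 10.5-fold for shNFYA, and no group overlapped another. The other ISG20 probe set followed the same order over the 6 group means (r = 0.999).

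IFI6, the small membrane protein, varied least, by 1.79 log2 between its lowest and highest group. It was 8.33, 8.31 and 8.25 in C32 shFHL2, against 10.03 and 10.14 in C32 GFP, 3.45-fold lower (-1.79 log2, SE 0.08). In A375M2 it was 9.07, 8.93 and 9.07 in shFHL2, 8.45, 8.52 and 8.53 in PMEL and 9.30, 9.41 and 9.58 in shNFYA, against 8.66, 8.77 and 8.66 in GFP. No groups overlapped: both hairpin arms were above GFP, by 0.32 and 0.73 log2, and PMEL was slightly below it.

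IFIT2 and IFIT3, which sit beside each other on chromosome 10 and whose proteins form a complex, were separated by line more than by arm. IFIT2 measured 10.03, 10.09 and 10.07 in C32 shFHL2, against 9.87 and 9.84 in C32 GFP. In A375M2 IFIT2 measured 7.80, 7.78 and 7.51 in shFHL2, 6.55, 6.48 and 6.34 in PMEL and 6.33, 6.08 and 6.02 in shNFYA, against 6.39, 6.64 and 6.69 in GFP. The C32 arms were both far above every A375M2 arm, and within A375M2 the FHL2 hairpins gave the highest level, 2.18-fold above GFP (1.12 log2, SE 0.10). A second IFIT2 probe set measured 5.14, 5.997 and 5.35 in C32 shFHL2, against 6.49 and 5.49 in C32 GFP. It differed in sign from the first one there, and lay under log2 4 in all of A375M2, so the small IFIT2 difference in C32 has no settled direction.

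IFIT3 gave 10.93, 11.14 and 11.14 in C32 shFHL2, against 11.41 and 11.39 in C32 GFP, a difference of -0.33 log2 (SE 0.10). In A375M2 it gave 9.45, 9.58 and 9.65 in shFHL2, 8.001, 8.19 and 8.01 in PMEL and 9.07, 9.29 and 9.08 in shNFYA, against 8.29, 8.61 and 8.54 in GFP. All 6 groups were apart: the hairpin arms exceeded GFP by 1.08 and 0.67 log2, and PMEL was -0.41 from GFP. Its second probe set kept this division by line (8.47, 8.60 and 8.65 in C32 shFHL2, 8.72 and 8.45 in C32 GFP), but its C32 arms overlapped. With that probe set A375M2 PMEL also overlapped A375M2 GFP (-0.07 log2).

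SLFN11, the replication block, was close to off or on by group. It was 9.24, 8.98 and 9.18 in C32 shFHL2, against 9.46 and 9.70 in C32 GFP. In A375M2 it was 8.01, 8.06 and 7.98 in shFHL2, 2.68, 2.25 and 2.40 in PMEL and 3.55, 3.51 and 3.79 in shNFYA, against 2.55, 2.22 and 2.43 in GFP. A375M2 GFP and PMEL overlapped at the low end, whereas shFHL2 was nearer to C32 than to GFP, a difference of 5.62 log2 from GFP (SE 0.13). With values under log2 4 set to 4 that difference was 4.02, and the 1.22 log2 of shNFYA over GFP was 0, since both lie below that level. In C32 the difference ran the other way, -0.45 log2 (SE 0.14).

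IFITM1, which acts at the site of viral entry, was high in both C32 arms, at 11.23, 11.27 and 11.20 in shFHL2 and 11.41 and 11.19 in GFP, which overlapped. In A375M2 it read 7.40, 7.09 and 6.997 in shFHL2, 10.69, 10.96 and 10.84 in PMEL and 4.47, 4.26 and 4.52 in shNFYA, against 10.45, 10.33 and 10.38 in GFP. Both hairpin arms were far below GFP and shNFYA was the lower of them, by 9.34-fold for shFHL2 (-3.22 log2, SE 0.10) and 62.7-fold for shNFYA (-5.97). PMEL lay 0.45 log2 above GFP. The probe set shared with IFITM2 read 6.59, 6.96 and 6.44 in A375M2 shFHL2 and 5.04, 5.90 and 5.90 in shNFYA, against 9.59, 9.63 and 9.66 in GFP, and cannot be assigned to either gene.

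MX2, the dynamin-like restriction factor, was at 2.30, 2.54 and 2.30 in C32 shFHL2 and 2.29 and 2.29 in C32 GFP. These are among the lowest values of the arrays, so no difference is read between the C32 arms. In A375M2 MX2 was 8.56, 8.76 and 8.66 in shFHL2, 11.03, 10.95 and 10.99 in PMEL and 8.03, 8.06 and 8.30 in shNFYA, against 11.05, 10.94 and 10.998 in GFP. Both hairpin arms lay below GFP, by 5.05-fold (-2.34 log2, SE 0.09) for shFHL2 and 7.28-fold (-2.86) for shNFYA, and PMEL overlapped GFP.

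**Figure D2:**
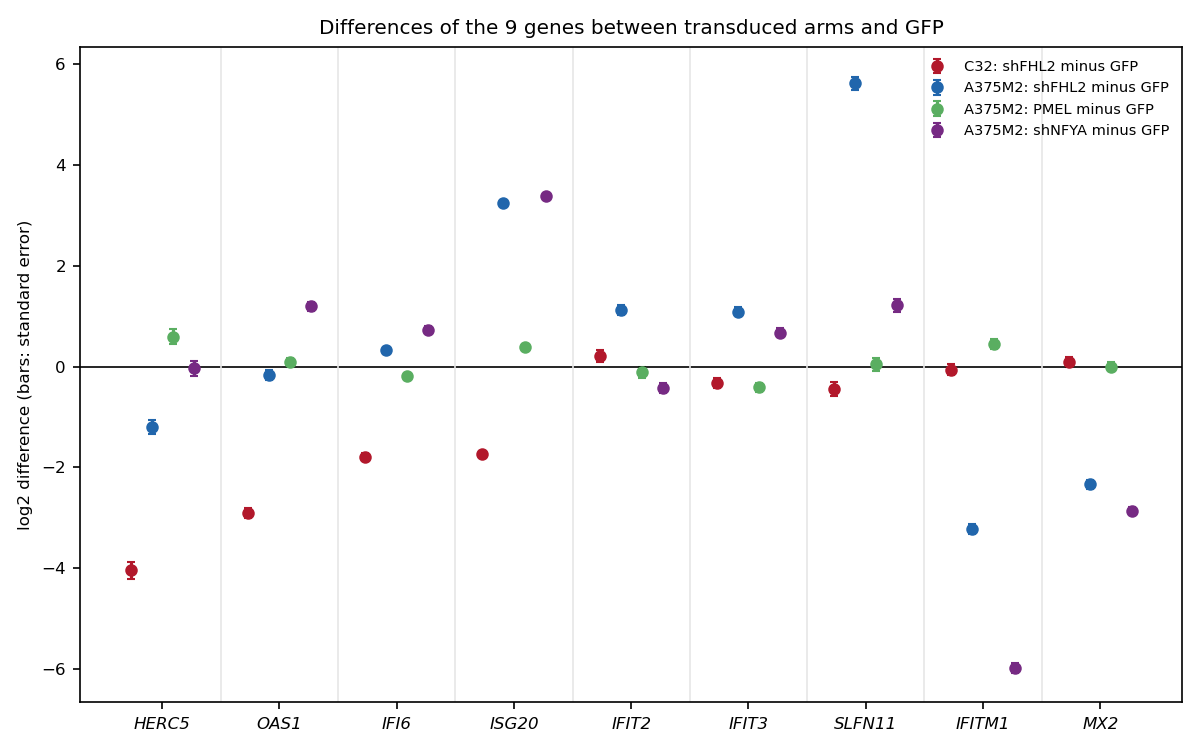
Log2 difference from the GFP arm of the same line (y axis) for each of the 9 genes (x axis), with the standard error as bars; colours mark the 4 transduced arms. HERC5, OAS1, IFI6 and ISG20 are the members far below 0 in C32 shFHL2, while SLFN11 and ISG20 lie far above and IFITM1 and MX2 far below 0 in A375M2 shFHL2. The PMEL arm stays within 0.59 log2 of GFP for every member.

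Between the hairpin arms of A375M2, which share their array set, the members also differed. Compared with shNFYA, shFHL2 was higher for SLFN11 (4.40 log2), IFITM1 (2.75), IFIT2 (1.55), MX2 (0.53) and IFIT3 (0.42). It was lower for OAS1 (-1.36), HERC5 (-1.17), IFI6 (-0.41) and ISG20 (-0.14). None of the 9 overlapped between these arms, beside 74.0% of all genes. ISG20 is the one whose level was nearest in both arms.

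Between the lines, C32 GFP was above A375M2 GFP for 7 members and below it for 2, with no overlap (background 89.9%). The differences were 7.18 log2 for SLFN11 (5.58 with values under log2 4 set to 4), 3.28 for IFIT2, 2.92 for IFIT3, 1.39 for IFI6, 1.15 for OAS1, 0.91 for IFITM1 and 0.82 for HERC5. ISG20 (-1.06) and MX2 (-8.71, or -6.99 with values under log2 4 set to 4) were lower in C32 GFP. The median over the 9 was 1.15, beside -0.10 over all genes. The comparison describes 2 lines and no treatment, and the C32 GFP arrays used shared 0 exactly equal low values with the A375M2 GFP arrays, so the line and the set of arrays cannot be told apart. Poly-A spike-in controls read 9.37 ± 0.28 in C32 GFP and 7.15 ± 0.03 in A375M2 GFP (mean log2 and SD, n = 2 and 3).

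Over the 6 group means, the members fell into profiles rather than one. Of the 36 pairs, 5 had a Pearson r over 0.8 and 18 had an r under 0, with a median of 0.0545. IFIT2, IFIT3 and SLFN11 were alike (r from 0.917 to 0.941), as were HERC5 and OAS1 (0.872) and OAS1 and IFI6 (0.824). MX2 ran against IFIT3 (-0.981) and IFIT2 (-0.929), and ISG20 against IFITM1 (-0.883). These values rest on 6 points that share arrays and 2 lines, and are given as description. By the same measure over all tested genes, the gene most like IFIT2 was IFIT1 (0.998) and most like IFIT3 was STING1 (0.995). HERC5 was most like SOX10 (0.996), OAS1 most like TSPAN10 (0.990) and IFI6 most like FYCO1 (0.990). For the others these were STK24 for ISG20, RPS16 for MX2, CAST for IFITM1 and RAB11FIP2 for SLFN11 (0.991 or more). The mean profile of the 9 was most like PLEKHM3 (0.996), KLHL3, ARFIP1, DHRS13, PCDHB13, FYCO1, SIAH1 and IL6ST (0.943 or more).

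Paralogs that the member list does not hold were tested. Of 17 listed, 12 were measured above the filter, and in C32 shFHL2 4 rose, 4 fell and 4 did not pass (limma, adjusted p under 0.05 over all 10940 genes, where 32.2% rose and 30.3% fell). HERC6, a ligase close to HERC5, measured 3.83, 4.17 and 4.25 in C32 shFHL2, against 6.44 and 6.36 in C32 GFP, and fell by 2.32 log2 (adjusted p = 4.68e-10). Every shFHL2 array was below both GFP arrays. In A375M2 HERC6 rose with both hairpins, by 0.97 in shFHL2 (adjusted p = 3.07e-06) and 1.17 in shNFYA (adjusted p = 2.77e-07), while HERC5 was lower or level there. By limma, OAS3 fell in C32 shFHL2 (-0.93, adjusted p = 7.04e-08), was 0.14 in A375M2 shFHL2 (adjusted p = 0.102) and rose in shNFYA (0.70, adjusted p = 2.18e-07). All 3 C32 shFHL2 arrays held the same OAS3 value, 5.92, so its spread is not measured there. The fall in C32 shFHL2 and the rise in shNFYA had the directions of OAS1. Unlike OAS1, OAS3 was level between C32 GFP (6.85) and A375M2 GFP (6.86).

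The IFIT paralogs followed IFIT2 and IFIT3 in A375M2 shFHL2. IFIT1 rose by 0.74 log2 (adjusted p = 2.27e-06) and IFIT5 by 1.10 (adjusted p = 8.81e-14) in limma's test, and in C32 shFHL2 they were 0.23 and 0.03 from GFP (adjusted p = 0.0928 and 0.615). IFITM2 and IFITM3 fell as IFITM1 did in the A375M2 hairpin arms, less in shFHL2 (-1.17 and -0.94) than in shNFYA (-2.92 and -2.69); shFHL2 exceeded shNFYA by 1.76 and 1.75 (largest adjusted p = 2.78e-14). These paralogs are nearly identical in sequence, and probes can cross between them.

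MX1 had the direction of MX2 in A375M2 shFHL2, where it read 4.66, 5.12 and 4.96, below every A375M2 GFP array. In PMEL and shNFYA MX1 did not follow MX2. It read 3.24, 3.15 and 3.10 in A375M2 PMEL, against 5.87, 5.37 and 5.72 in A375M2 GFP, and fell by 2.50 log2 (adjusted p = 3.62e-08), where MX2 overlapped GFP and MX1 itself is under log2 4 in PMEL (-1.66 with values under log2 4 set to 4); in shNFYA it was -0.18 from GFP (adjusted p = 0.406), where MX2 was lower. Of the SLFN paralogs, SLFN5 rose in A375M2 shFHL2 by 2.04 and in shNFYA by 1.53 (adjusted p = 1.89e-11 and 9.64e-10), and fell in C32 shFHL2 (-0.89, adjusted p = 1.34e-05). SLFN12 rose by 0.82 in A375M2 shFHL2, 0.78 in PMEL and 0.56 in shNFYA (adjusted p = 3.61e-06, 4.27e-05 and 0.000242). In A375M2 shFHL2 the exonuclease paralogs of ISG20 moved little beside it: ISG20L2 was -0.01 and AEN 0.91 from GFP (limma, adjusted p = 0.781 and 1.19e-12). In C32 shFHL2, where ISG20 was lower, their means lay above C32 GFP (11.20 and 10.34, against 10.49 and 9.97). HERC4 rose in C32 shFHL2 by 0.19 (adjusted p = 0.00217) and in A375M2 shNFYA by 0.57 (adjusted p = 7.71e-10).

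**Figure D3:**
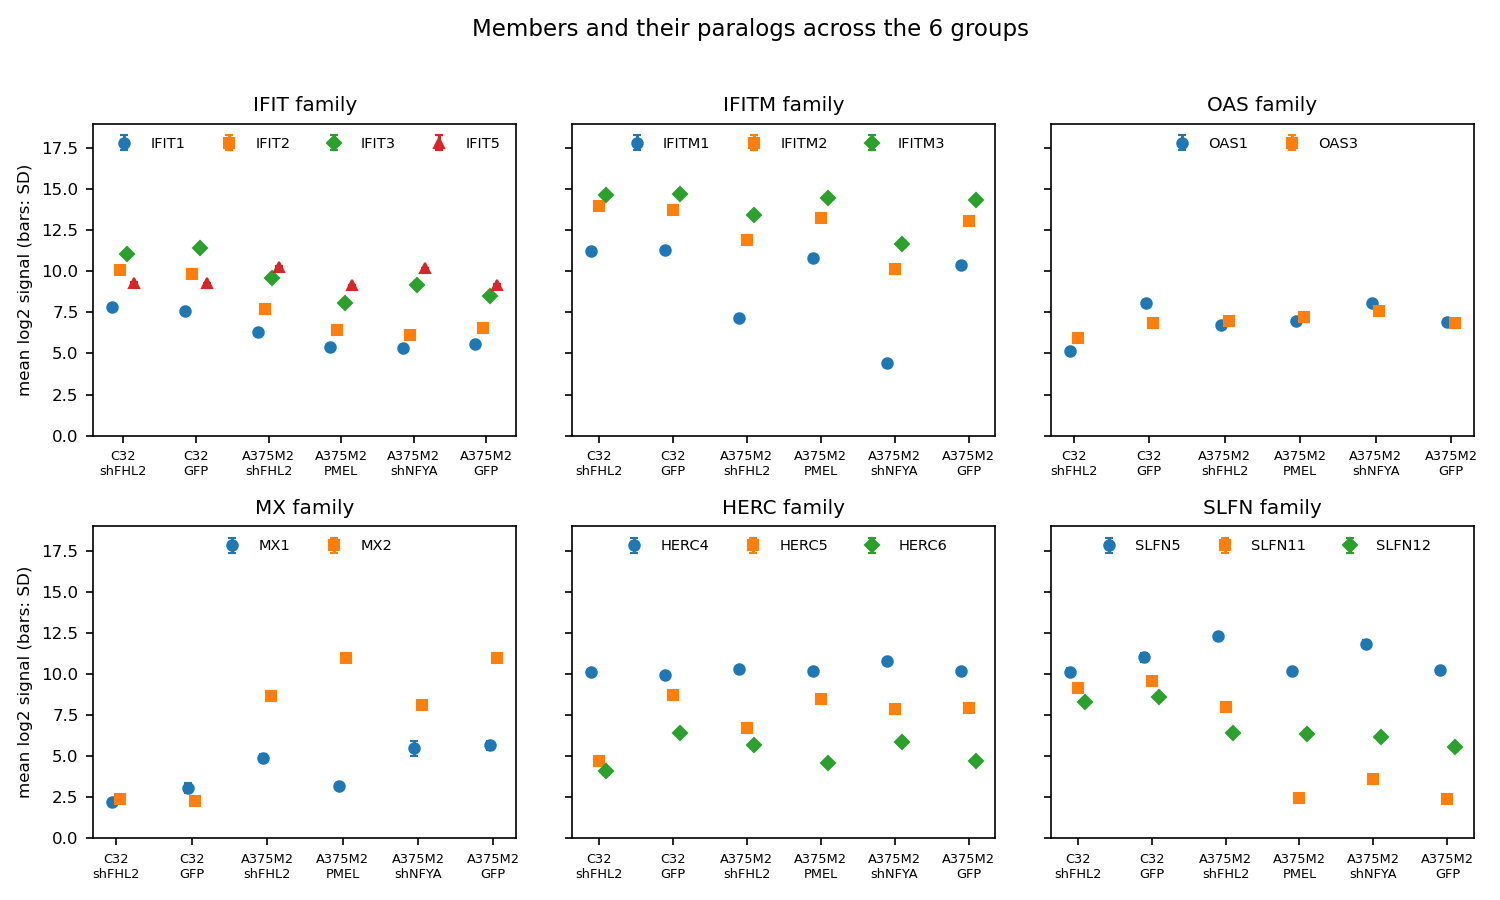
Mean log2 signal (y axis) with SD bars, most of them smaller than the symbols, of members and their measured paralogs in the 6 groups (x axis), by family. IFITM1, IFITM2 and IFITM3 all dip in the A375M2 hairpin arms and MX1 and MX2 part in A375M2 PMEL. HERC4 is near 10 in every group while HERC5 and HERC6 are lowest in C32 shFHL2.

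Beyond the 9, more interferon genes fell than rose in C32 shFHL2. Of the 70 other interferon genes measured, 37 fell, 12 rose and 21 did not pass, beside 30.3% of all genes that fell and 32.2% that rose; 11 fell and 0 rose by 2-fold or more (background 5.04% and 3.52%). These are limma calls, and the counts describe the list without testing it. The median log2 difference was -0.29, beside 0.00 over all genes. Among effectors 25 of 40 fell and 6 rose, and among interferon gamma leaning genes 5 of 10 fell and 3 rose. Of the receptor and JAK-STAT genes, 5 of 11 fell and 2 rose, and of the sensing genes and interferon regulatory factors, 2 of 9 fell and 1 rose. None of the 21 interferon genes proper (the ligands) was analysed here.

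XAF1, which antagonises an inhibitor of apoptosis, measured 3.64, 4.08 and 3.98 in C32 shFHL2, against 8.58 and 8.35 in C32 GFP, and fell by 4.57 log2 (SE 0.12, adjusted p = 4.08e-15). SAMD9L, an antiproliferative factor, measured 3.47, 2.91 and 3.39 in C32 shFHL2, against 7.72 and 7.68 in C32 GFP, and fell by 4.44 log2 (adjusted p = 4.03e-13). Both were well expressed in C32 GFP and close to the bottom of the scale in C32 shFHL2, with no overlap. With values under log2 4 set to 4 the differences were -4.44 for XAF1 and -3.70 for SAMD9L. The feedback inhibitor SOCS3 fell by 2.76 (7.40, 7.24 and 7.59 in shFHL2, 10.17 and 10.18 in GFP, adjusted p = 6.53e-11) and the double-stranded RNA receptor TLR3 by 2.75 (adjusted p = 7.52e-09). With the same floor the TLR3 difference was -2.16. TRIM22, an antiviral ubiquitin ligase, fell by 2.06 (adjusted p = 3.74e-09) and WARS1, a tRNA synthetase induced by interferon gamma, by 1.70 (adjusted p = 6.52e-16). Of the transcription factors that drive the programme, IRF7 fell by 1.20 (adjusted p = 1.86e-07) and IRF9 by 0.99 (adjusted p = 8.43e-09).

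The receptor chains moved less. IFNGR1 and IL10RB fell by 0.43 and 0.51 (adjusted p = 5.44e-07 and 8.75e-06), JAK2 fell by 0.52 (adjusted p = 0.0117), and IFNLR1 rose by 0.57 (adjusted p = 0.00026). The 8 largest rises were CIITA (0.89), the activator of MHC class II genes, the immunoproteasome subunit PSMB8 (0.73), IRF3 (0.67), IFNLR1, IFI16 (0.37), TRIM25 (0.31), SAMHD1 (0.27) and PNPT1 (0.27), with adjusted p up to 0.044. SAMHD1 did not pass without the mirrored arrays. Poly-A spike-in controls differed between the same arms, at 5.96 ± 0.04 in C32 shFHL2 and 9.37 ± 0.28 in C32 GFP, as did hybridisation spike-ins, at 11.37 ± 0.06 and 12.36 ± 0.14 (mean log2 and SD, n = 3 and 2). Melanocyte markers were lower, with a summed level of 14.96 to 15.07 in C32 shFHL2 and 16.08 to 16.15 in C32 GFP. Of 11 leukocyte markers 2 were in the table used, and they went opposite ways: LYZ was 5.69, 5.01 and 6.35 in C32 shFHL2 and 2.71 and 4.69 in C32 GFP (a rise by 1.98), and PTPRC was 7.96, 7.67 and 7.78 in C32 shFHL2 and 8.61 and 8.65 in C32 GFP (a fall by 0.83). Their sum, mostly PTPRC, was 7.89 to 8.24 in C32 shFHL2 and 8.63 to 8.74 in C32 GFP. Fibroblast markers summed to 12.73 to 12.75 in C32 shFHL2 and 12.15 to 12.32 in C32 GFP, keratinocyte markers to 12.77 to 12.91 and 12.37 to 12.50, and the endothelial marker KDR was at 7.75 to 7.88 and 10.15 to 10.21. Their part in these results was not tested, and fewer cells of a kind and less RNA per cell cannot be told apart in bulk RNA.

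In A375M2 shFHL2 the other interferon genes moved both ways. Of 70, 36 rose, 23 fell and 11 did not pass, beside 41.1% of all genes that rose and 44.3% that fell; 19 rose and 7 fell by 2-fold or more (background 15.2% and 16.2%). The median was 0.24, beside -0.04 over all genes. The effectors divided evenly, with 17 rises and 18 falls among 40. Rises outnumbered falls among interferon gamma leaning genes (6 and 2 of 10), receptors and JAK-STAT genes (6 and 2 of 11) and sensing genes and regulatory factors (7 and 1 of 9).

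IFNLR1, the chain that makes cells sensitive to interferon lambda, measured 7.75, 7.90 and 7.98 in A375M2 shFHL2, against 3.77, 3.76 and 3.93 in A375M2 GFP, a rise of 4.06 log2 (SE 0.10, adjusted p = 9.36e-17). Its partner chain IL10RB rose by 1.29 (adjusted p = 2.99e-12) and IFNGR1 by 0.55 (adjusted p = 1.5e-09), while JAK1 fell by 0.69 (adjusted p = 2.8e-05). IFNAR1 was 1.04, but 1 of its 4 probe sets was called the opposite way. The lysosomal membrane protein LAMP3 rose by 3.25, SAMD9 by 2.87, IFI44 by 2.71, IRF1 by 2.18, WARS1 by 1.84, SAMD9L by 1.72, SOCS3 by 1.12 and the cytosolic RNA sensor RIGI by 1.79 (largest adjusted p = 1.65e-06). The secreted glycoprotein LGALS3BP fell by 2.13, RTP4 by 2.03, the guanylate-binding protein GBP2 by 1.82, the nucleotide kinase CMPK2 by 1.62, IRF3 by 1.13 and TRIM22 by 1.07 (largest adjusted p = 4.64e-06).

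Signal for 18S ribosomal RNA differed between these arms, at 14.18 ± 0.07 in A375M2 shFHL2 and 14.19 ± 0.11 in shNFYA, against 12.52 ± 0.035 in A375M2 GFP, and 11.08 ± 0.02 in PMEL (mean log2 of 3 probe sets and SD, n = 3). Melanocyte markers summed to 12.55 to 12.65 in A375M2 shFHL2 and 12.78 to 12.88 in shNFYA, against 14.68 to 14.78 in A375M2 GFP. Leukocyte markers summed to 9.34 to 9.51 and 9.30 to 9.54 in these hairpin arms and to 4.07 to 4.38 in A375M2 GFP, with LYZ as the high gene and PTPRC, the defining leukocyte marker, under log2 4 in every A375M2 group. Of 5 fibroblast markers tested, 4 fell and 1 rose in each hairpin arm, with FAP falling most in shFHL2 (by 5.63), and the summed level of the 6 in the table was 8.92 to 9.04 in shFHL2, 8.74 to 8.93 in shNFYA and 10.21 to 10.25 in PMEL, against 11.50 to 11.69 in A375M2 GFP. COL1A2 and DCN were under log2 4 in all 4 groups. The keratinocyte marker KRT10 rose in both hairpin arms, and KRT14 was under log2 4 except in shNFYA (5.08), with a summed level of 13.50 to 13.78 in shFHL2 and 13.30 to 13.35 in shNFYA, against 12.06 to 12.31 in A375M2 GFP. KDR was at 7.34 to 7.75 in shFHL2 and 5.74 to 5.95 in shNFYA, against 6.69 to 6.96 in A375M2 GFP. The part of these values in the results was not tested.

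The FHL2 hairpins thus gave different interferon gene values in the 2 lines, and limma's interaction term tests that difference. The shFHL2 effect was lower in C32 than in A375M2 for 47 of 70 genes and higher for 13 (38.1% and 42.1% of all genes); by 2-fold or more it was lower for 26 and higher for 7 (background 16.7% and 17.2%). The median was -0.66, beside 0.06 over all genes. By list, 27 of 40 effectors, 6 of 10 interferon gamma leaning genes, 7 of 11 receptor and JAK-STAT genes and 7 of 9 sensing genes and regulatory factors were lower. SAMD9L had the largest value among the 70, -6.16 (SE 0.23, adjusted p = 6.13e-14): it fell in C32 and rose in A375M2. With values under log2 4 set to 4 its value was -5.41. TLR3 (-4.01, or -3.42 with that floor), SOCS3 (-3.88), WARS1 (-3.53), SAMD9 (-3.49) and LAMP3 (-4.20, or -4.08 with it) had the same pattern of signs. XAF1 (-3.96, or -4.44 with values under log2 4 set to 4) fell in C32, while both A375M2 arms lay under log2 4 and have no order there. Opposite signs of the interaction came from genes lower in A375M2 shFHL2, such as RTP4 (1.997), IRF3 (1.81) and GBP2 (1.71; largest adjusted p of the 3 = 2.91e-06). For the 9 members the same quantity, with no test, was -4.04 against -1.20 for HERC5, -1.73 against 3.25 for ISG20 and -0.06 against -3.22 for IFITM1 (C32 first).

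**Figure D4:**
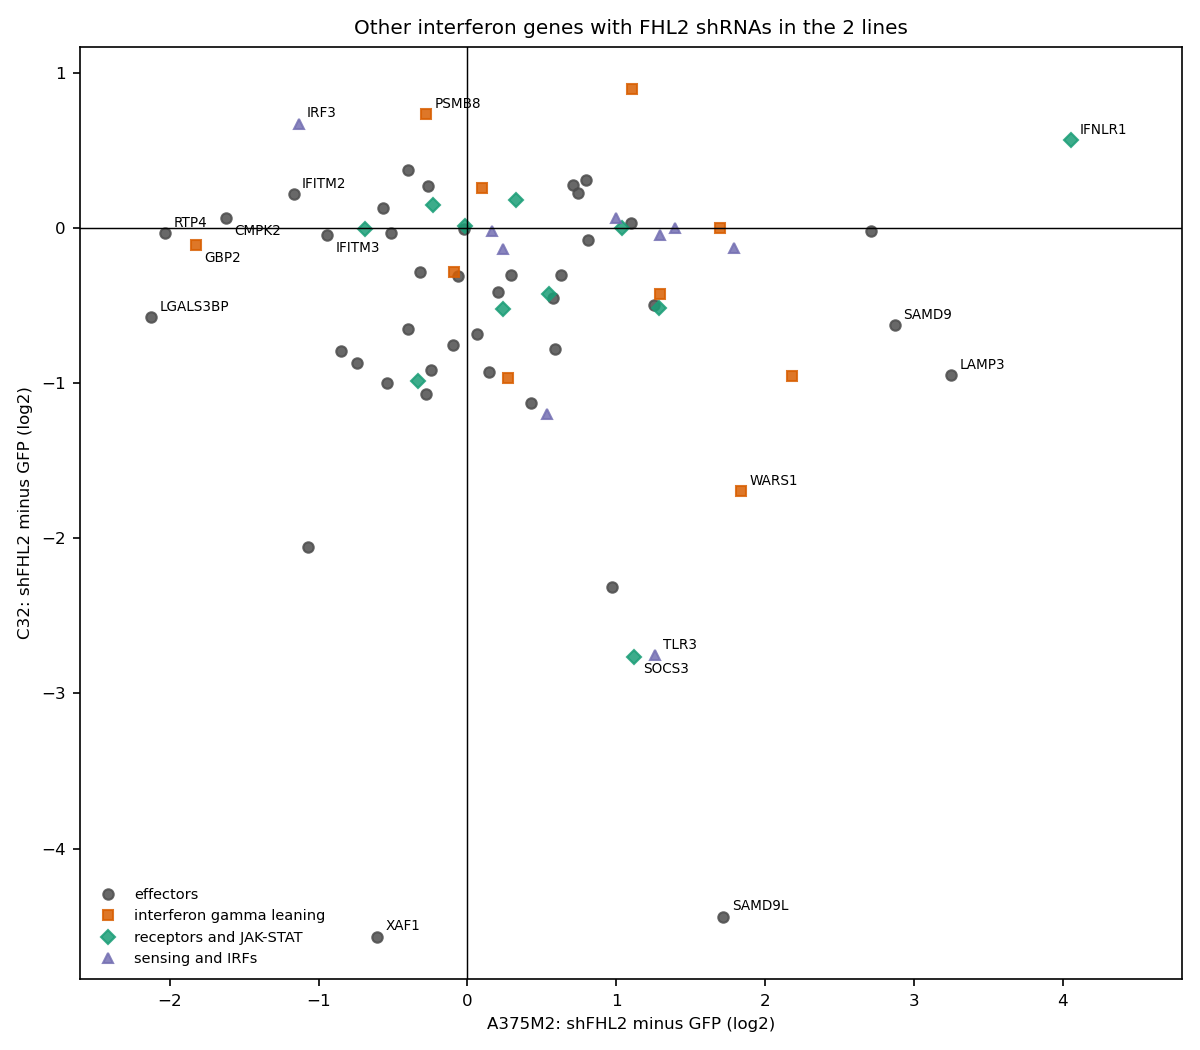
Each point is 1 of the 70 other interferon genes: the log2 difference of shFHL2 from GFP in C32 (y axis) against the same difference in A375M2 (x axis), with colour and shape for the 4 lists; labelled genes have the largest tested difference between the lines. Most points lie at or below 0 in C32 and are spread to both sides of 0 in A375M2, and SAMD9L and XAF1 lie lowest in C32.

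Few of these genes moved far in A375M2 PMEL. There, 18 of 70 rose, 11 fell and 41 did not pass, beside 22.1% and 17.8% of all genes; without the mirrored arrays 15 rose and 9 fell. By 2-fold or more 1 rose and 2 fell (background 0.521% and 1.62%). The fallers were MX1, described above, and IFI44, which measured 4.34, 4.39 and 4.18 in A375M2 PMEL, against 5.87, 6.08 and 6.15 in A375M2 GFP (a fall by 1.73, adjusted p = 7.39e-10). LAMP3 was the riser, at 1.17 (adjusted p = 7.61e-07). TRIM22 fell by 0.83, ISG15, the ubiquitin-like protein that HERC5 attaches, by 0.77 and IRF9 by 0.61 (largest adjusted p = 0.000169). The remaining named rises were PLSCR1 (0.41), OAS3 (0.38), CIITA, IRF1, PARP12, MAVS and PARP9, all under 0.5 log2. In the receptor list IL10RB, IFNAR1 and IFNGR2 fell by 0.37, 0.40 and 0.26 and SOCS3 rose by 0.36 (limma, adjusted p = 0.048). For IFNAR1, 1 of 4 probe sets had the opposite sign and was not called. Without the mirrored arrays CIITA did not pass, nor did CMPK2, NT5C3A, USP18 and WARS1.

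With the NFYA hairpins, 32 of 70 rose, 26 fell and 12 did not pass (43.5% and 43.3% of all genes); 18 rose and 6 fell by 2-fold or more (background 17.3% and 18.5%). Centring each array on its median shifted this comparison by 0.105 log2 and gave 36 rises and 21 falls. IFNLR1 rose by 3.58, the chemokine CXCL11 by 3.01 to a level of 5.22, SAMD9 by 2.67, SAMD9L by 2.42, WARS1 by 2.21, IFI44 by 1.97, IRF5 by 1.94 and RIGI by 1.87 (largest adjusted p = 8.75e-07). CXCL11 (2.21) and IRF5 (2.23) were at the bottom of the scale in A375M2 GFP, and with values under log2 4 set to 4 their differences were 1.22 and 0.25. RTP4 fell by 3.78, GBP2 by 3.40, LGALS3BP by 1.69, the DNA sensor IFI16 by 1.28, IRF3 by 0.98 and TRIM22 by 0.85, beside the IFITM genes (largest adjusted p = 2.58e-05). The receptor chains IFNGR1 (1.07), IL10RB (1.08) and IFNGR2 (0.42) and the kinase JAK2 (0.78) rose (largest adjusted p = 0.000108). For IFNAR1 (1.23) 2 of 4 probe sets had the opposite sign, and 1 of them was called.

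Set against shNFYA, A375M2 shFHL2 was higher for 30 of 70 genes and lower for 20 (31.8% and 38.3% of all genes), by 2-fold or more for 6 and 2 (background 6.37% and 4.02%). LAMP3 measured 7.25, 6.99 and 7.18 in shFHL2, against 3.61, 3.61 and 3.84 in shNFYA, a difference of 3.46 (adjusted p = 7.06e-14). RTP4 (1.75), GBP2 (1.58), SOCS3 (1.11), IFIT1 (0.97) and GBP1 (0.94) were also higher in shFHL2, and CXCL11 (-1.31), CMPK2 (-1.14), ISG15 (-0.98), USP18 (-0.76), SAMD9L (-0.70), OAS3 (-0.55), JAK2 (-0.54) and IFNGR1 (-0.52) lower (largest adjusted p = 0.00385). In this comparison ISG15, its deconjugating enzyme USP18 and its ligase HERC5 were all lower. Against A375M2 GFP they did not go together. Mean ISG15 was higher in shFHL2 (8.16, and 7.58 in GFP), while USP18 (5.90 and 6.18) and HERC5 (6.72 and 7.92) were lower.

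Without hairpins, C32 GFP was higher than A375M2 GFP for 37 of 70 genes and lower for 23 (38.7% and 47.2% of all genes), by 2-fold or more for 23 and 9 (background 18.3% and 24.8%). XAF1 was 8.46 in C32 GFP and 3.55 in A375M2 GFP, and SOCS3 10.17 and 5.38. The cyclic dinucleotide receptor STING1 (3.54), SAMD9L (3.32), GBP1 (2.68), SAMD9 (2.65), IFI44 (2.52) and WARS1 (2.27) were higher in C32 GFP, as were the receptor genes IFNLR1 (2.25) and IFNGR1 (1.73; largest adjusted p of these = 1.9e-12). MX1 was lower (-2.58, or -1.66 with values under log2 4 set to 4). IFI35 (-2.54), the nuclear body proteins SP110 (-2.21) and SP100 (-1.44), PSMB9 (-1.84), IRF3 (-1.80), CMPK2 (-1.77) and MAVS (-1.29) were also lower (limma, largest adjusted p with MX1 included = 4.37e-08). The low MX1 in C32 stood beside MX2 at the bottom of the scale there.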

How the data were processed

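The values are log2 signals that the authors deposited for 18 Affymetrix 3′ expression arrays; GCRMA made them, as the submitters' processing notes name it, without a version. The 23416 probe sets include 58 controls, and all columns matched samples by their labels. Probe sets with a single gene symbol and log2 4 or more in at least 3 arrays were kept, and the one with the highest mean over all arrays stood for its gene, which gave 10940 genes. Limma 3.58.1 (R 4.3.3) was run on the 17 single arrays, with a mean for each group in the model (lmFit and eBayes with a trend, 11 residual degrees of freedom). Within each comparison p-values were adjusted over all genes by Benjamini-Hochberg, and an adjusted p under 0.05 counts as a call. The pipeline was tested on simulated data. The number of arrays and the signal over background limit precision.

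The 9 genes and the gene lists were chosen with earlier results of these data known, so the lists are no independent evidence. Genes named beyond the 9 are FHL2, PMEL and NFYA, paralogs, up to 6 called receptor and JAK-STAT genes, up to 8 called genes each way with the largest difference and no overlap of arrays, and the genes with the most alike profiles. Promoters are RefSeq windows of assembly GRCh38.p14. Alternatives changed the filter, a floor, the scaling, the choice of probe set, the variance model, the threshold, array weights, the arrays and groups used, and added a replicate block. Plots used matplotlib 3.10.9.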

Additional observations from a re-analysis of the deposited data

Results flagged for a closer look

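For 5 of the 9 genes, as measured by the probe set used, the FHL2 hairpin arrays lay on opposite sides of GFP in the 2 lines. Of all genes, 86.9% did not overlap between these arms in A375M2 and 74.6% in C32. The share of all genes on opposite sides was not counted, so the number of members says little by itself. The effect in C32 minus that in A375M2 was -2.11 log2 for IFI6, -1.41 for IFIT3, -4.98 for ISG20, -6.06 for SLFN11 and 2.43 for MX2. These differences were not tested, since the genes were chosen with their values known, and for 2 of them the sign in C32 is not settled. MX2 is under log2 4 in both C32 arms, so no sign is read there, and the second IFIT3 probe set overlapped between the C32 arms. That leaves IFI6, ISG20 and SLFN11 with opposite signs.

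Of the 70 other interferon genes, 60 passed limma's interaction test (13 higher and 47 lower) and 10 did not. Of all genes, 42.1% were higher and 38.1% lower by this test, so the number passing says little by itself. The genes with the largest negative values were SAMD9L (-6.16), LAMP3 (-4.20), TLR3 (-4.01), XAF1 (-3.96), SOCS3 (-3.88), WARS1 (-3.53), SAMD9 (-3.49) and IFNLR1 (-3.49), with adjusted p up to 1.06e-09. Those with the largest positive values were RTP4 (1.997), IRF3 (1.81), GBP2 (1.71), CMPK2 (1.69), LGALS3BP (1.55), IFITM2 (1.38), PSMB8 (1.01) and IFITM3 (0.89), with adjusted p up to 2.91e-06. In A375M2 the hairpin arm and its array set cannot be told apart, so this holds for the difference between the lines as well. Groups of 3 arrays were too small for a search for single outlying arrays.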

How the results depend on the processing

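Counts of other interferon genes called kept within 1.5 times of their value in every comparison under the other filters, floor, scalings, probe set choices and variance models, with the groups of a comparison alone, with all 18 arrays and without the mirrored arrays, except for the settings given here. At an adjusted p under 0.05 and 2-fold or more, counts by construction dropped to 26 in A375M2 shFHL2 against GFP (19 higher, 7 lower), 3 in PMEL (1 and 2), 24 in shNFYA (18 and 6), 8 between the hairpin arms (6 and 2), 11 in C32 (0 and 11), 32 between the lines (23 and 9) and 33 for the interaction (7 and 26). For PMEL, an adjusted p under 0.01 left 11 rises, and array weights gave 21 falls; the cause was not tested. Leaving out each array in turn gave 58 to 60 calls in A375M2 shFHL2, 24 to 31 in PMEL, 54 to 59 in shNFYA, 46 to 51 between the hairpin arms, 45 to 49 in C32, 57 to 61 between the lines and 57 to 61 for the interaction.

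Same-numbered arrays deviated together with correlations from -0.998 to 0.142, so the numbers do not pair the arrays. A fit with the replicate block gave 36 rises and 23 falls in A375M2 shFHL2, 16 and 11 in PMEL, 32 and 26 in shNFYA, 28 and 20 between the hairpin arms, 11 and 37 in C32, 37 and 23 between the lines and 13 and 47 for the interaction.

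Among 63 differences of the 9 genes, 1 turned sign under both scalings, HERC5 in A375M2 shNFYA (-0.03, and 0.07 with centring and 0.08 with quantile normalization), where the arms overlap. Without the mirrored arrays it was 0.05, and IFIT2 in PMEL, which also overlaps GFP, was 0.0011 in place of -0.12. OAS1 in A375M2 shFHL2 reversed to 0.38 with its most variable probe set and 0.10 with the mean of its probe sets, and IFIT2 in C32 shFHL2 reversed to -0.14 with the mean of its probe sets. Values under log2 4 cannot be ordered.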
